A study of Rattus norvegicus with 10 samples.

Results

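Peroxisomes are small organelles that shorten fatty acids by beta-oxidation and oxidise other substrates with oxidases that release hydrogen peroxide, which catalase removes. Their proteins are made in the cytosol and brought in by peroxins, the products of the Pex genes, which also build the membrane and divide the organelle. In rodent liver many peroxisomal genes are targets of PPAR-alpha, the nuclear receptor through which fibrates and other peroxisome proliferators act. The transcripts described here are those of peroxisome biogenesis and of peroxisomal enzymes, 38 genes chosen by name: 13 peroxins, 14 genes of beta-oxidation, 5 oxidase and catalase genes, 2 of alpha-oxidation, 2 of ether lipid synthesis and 2 of a membrane protein family. A probe set of their own was found for 36 of the 38, among 14217 genes measured in all, and each gene was represented by its probe set with the highest mean. The exceptions were Acaa1a and Acaa1b, the 3-ketoacyl-CoA thiolases, which share 1 probe set.

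The livers came from 10 Harlan Sprague Dawley rats, each hybridised to its own Affymetrix expression array. In the HMB group, 5 rats were fed 10000 ppm HMB, which is 2-hydroxy-4-methoxybenzophenone or oxybenzone, an ultraviolet filter, for 13 weeks up to the day of sacrifice. The 5 control rats were fed 0 ppm. The dose label of HMB 1 read 0 ppm, against its title and its chemical label, and values with this animal counted as a control are given for some genes below. Rats were housed 5 per cage, so cage and HMB cannot be told apart if each group was 1 cage. The labels gave no sex, age or array date, and numbers within a group follow the order of deposition. Values are log2 signals, normalised between arrays by the authors.

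The arrays held the transcripts of liver at high level. All 9 measured hepatocyte markers lay among the brightest 25% of genes, with albumin (Alb) at 14.57 ± 0.06 (SD, n = 5) in HMB rats and 14.61 ± 0.03 in controls. None of the 5 macrophage, 4 endothelial, 7 stellate, 4 cholangiocyte, 6 lymphocyte or 4 erythroid markers measured passed the test used below. Only 1.72% of all genes passed it, so 0 among so few markers says little about cell types. The mean signal of the macrophage markers ran from 7.13 to 7.86 over HMB rats and from 6.39 to 8.25 over controls, and that of the erythroid markers from 5.49 to 5.97 in HMB rats and from 5.15 to 5.67 in controls, with all 4 erythroid markers above 0 in their difference. Of these Slc4a1, the anion exchanger of red cells, was higher in every HMB rat than in any control (log2 difference 0.39, limma adjusted p = 0.0728), and the part of blood cells in the differences below was not tested. Cyp2c11, a cytochrome P450 of male rat liver, was at 13.17 to 13.26 in the HMB rats and at 13.20 to 13.23 in controls. Of 8 measured sex-linked and sex-dependent genes 0 passed, against the same 1.72% of all genes. Cyp2c12, a cytochrome P450 of female rat liver, was at 8.97 ± 0.56 in HMB rats and 10.11 ± 0.82 in controls (SD, n = 5 each, log2 difference -1.14, limma adjusted p = 0.0983), and the Y-linked Eif2s3y differed by 0.26 (limma adjusted p = 0.098). In a whole tissue, fewer cells of a type and less RNA per cell cannot be told apart.

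After 13 weeks of HMB, 1 of the 36 peroxisomal genes had changed. Pex11a, which elongates and divides peroxisomes, rose 1.53-fold, and the other 12 peroxins did not pass (limma with Benjamini-Hochberg adjustment over all genes, adjusted p under 0.05). None of the 23 enzyme, transporter and membrane protein genes passed. The probe set shared by both thiolase genes rose as well, in a test over probe sets, and Ehhadh, the bifunctional enzyme of beta-oxidation, lay just outside the threshold. The 1 called gene was 2.78% of the members, against 1.72% of all genes called in either direction with 0.760% called as higher and 0.957% as lower in HMB. At an unadjusted p under 0.05 there were 5 members higher and 1 lower in HMB, 16.7% of the members, where 24.9% of all genes passed that limit. By direction, 11.5% of all genes passed it as higher and 13.4% as lower in HMB. In 3 members all HMB animals lay above all controls (2.64% of all genes did) and in 0 all lay below (3.48%), so that the groups did not overlap in 8.33% of members and in 6.12% of all genes. The median log2 difference was 0.01 over the members and -0.02 over all genes, and 19 of 36 members were above 0 (52.8%, against 46.5% of all genes).

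**Figure D1:**
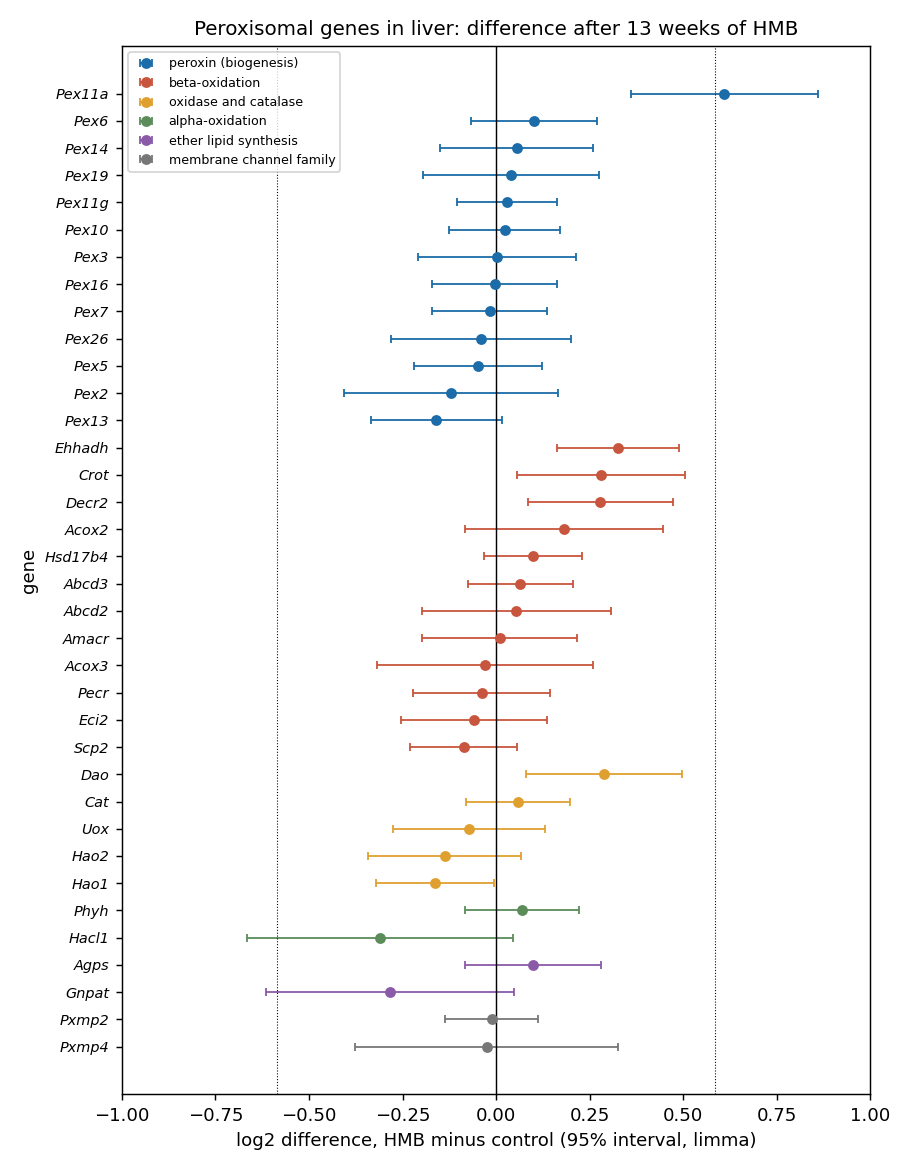
Log2 difference between HMB and control livers for the 36 peroxisomal genes with their own probe set (point) and its 95% interval from limma (bar), ordered by role and then by size, with 5 animals per group. The dotted lines mark 1.5-fold in either direction. Pex11a stands alone at 0.61, 5 members have intervals wholly above 0, and Hao1 is the 1 member with an interval wholly below 0.

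The intervals show how large a difference these arrays would still allow. The 95% interval lay within 1.5-fold in either direction for 33 of 36 members. The 3 that reached beyond 1.5-fold were Pex11a on the higher side, and Hacl1 and Gnpat on the lower side. Apart from Pex11a, the highest upper bound was a log2 difference of 0.50, that of Crot.

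Among the peroxins, Pex11a had log2 signals of 7.95, 8.02, 7.81, 8.20 and 8.26 in HMB 1 to 5, against 7.36, 7.63, 7.67, 7.35 and 7.18 in controls 1 to 5. The lowest HMB animal lay above the highest control, and the gap between the groups was 0.14. The mean was 8.05 ± 0.18 in HMB rats and 7.44 ± 0.21 in controls (SD, n = 5 each), a log2 difference of 0.61 ± 0.11 (SE) with a 95% interval of 0.36 to 0.86 (limma adjusted p = 0.0319). The call was lost without HMB 2, HMB 4, HMB 5, control 2, control 3, control 4 or control 5. The limma adjusted p was then between 0.0589 and 0.084, and the differences were between 0.55 and 0.67. Calls over all genes, 244 with every animal, fell to between 0 and 15 in these fits. With HMB 1 counted as a control the difference of Pex11a was 0.55 (adjusted p = 0.073). A dimmer second probe set of Pex11a, at 3.87 in HMB rats and 3.52 in controls, differed by 0.34 ± 0.16 with overlapping groups (limma adjusted p = 0.218 over probe sets).

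The other peroxins stayed within 0.16 of 0 on the log2 scale. Pex11g, a second member of the division family, differed by 0.03. The import receptors Pex5, for proteins with a signal at the C-terminus, and Pex7, for proteins with a signal near the N-terminus, had log2 differences of -0.05 and -0.02. Pex13 and Pex14, which form the docking site for these receptors, were at -0.16 and 0.05. Pex2 and Pex10, ring finger proteins that ubiquitinate the receptor, were at -0.12 and 0.02, and Pex6, an ATPase that draws the receptor back out, and Pex26, its membrane anchor, at 0.10 and -0.04. Pex3, Pex16 and Pex19, which insert membrane proteins, were at 0.00, -0.00 and 0.04. The adjusted p of these 12 ran from 0.237 to 0.987, and Pex13 had the smallest. Its signals were 9.86, 9.70, 9.64, 9.61 and 9.73 in HMB 1 to 5, against 9.68, 9.96, 9.93, 9.80 and 9.97 in controls. The groups overlapped, with control 1 below HMB 1, HMB 2 and HMB 5, and HMB 1 above control 4 as well. A second, dimmer probe set of Pex16 disagreed with the one used, at 0.29 ± 0.09 (adjusted p = 0.103 over probe sets).

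Beta-oxidation in the peroxisome begins with import of the acyl-CoA by ABC transporters and with an acyl-CoA oxidase, passes through a bifunctional enzyme and ends with a thiolase. Of 12 measured genes of this pathway 8 were above 0 and 4 below, and 0 passed. At an unadjusted limma p under 0.05, 3 were higher and 0 lower (25% of the 12). Over all genes 24.9% were under that limit, 11.5% as higher and 13.4% as lower in HMB. Ehhadh, the L-bifunctional enzyme, had log2 signals of 10.98, 10.98, 11.05, 11.07 and 10.96 in HMB 1 to 5, against 10.68, 10.79, 10.75, 10.74 and 10.46 in controls. The HMB animals lay close together and all above the controls. The log2 difference was 0.33 ± 0.07 (SE, n = 5 per group, 95% interval 0.16 to 0.49), just outside the threshold (limma adjusted p = 0.052). It passed without control 1 (adjusted p = 0.0425), where 1014 of all genes were called, and not when any other animal was left out.

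The last step is the thiolase. The probe set that the annotation assigns to both Acaa1a and Acaa1b read 11.44, 11.42, 11.38, 11.26 and 11.54 in HMB 1 to 5, against 10.98, 11.08, 11.05, 11.05 and 10.95 in controls. All HMB animals lay above all controls, with a gap of 0.19. The log2 difference was 0.39 ± 0.08 (SE, n = 5 per group, limma adjusted p = 0.0341 over 31042 probe sets, of which 1.70% were called and 0.705% were called as higher). This probe set cannot say which of the 2 genes rose, and it enters no count of genes. Its call was lost without HMB 2, HMB 4, HMB 5, control 2, control 3, control 4 or control 5 (adjusted p up to 0.086), and with HMB 1 counted as a control (difference 0.31, adjusted p = 0.103). The separate fits over genes do not include this probe set. Without any 1 of these 7 animals they called 0 to 15 of all genes, against 244 with every animal.

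**Figure D2:**
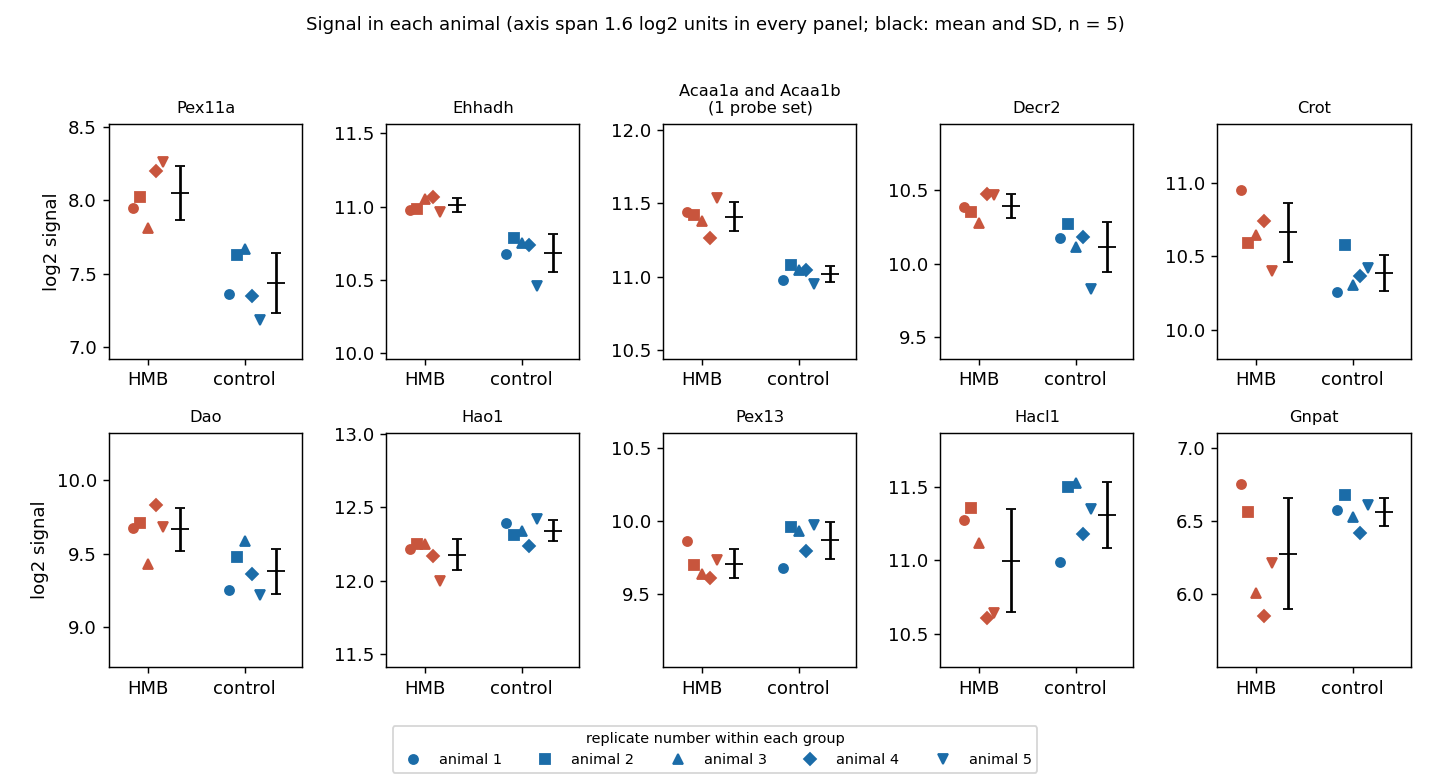
Log2 signal in each HMB rat (left, red) and each control rat (right, blue) for 9 named genes and the thiolase probe set, with a marker shape per replicate number, which pairs no animals, and the group mean and SD in black (n = 5 each). Each axis spans 1.6 log2 units. The groups are separate for Pex11a, Ehhadh, the thiolase probe set and Decr2 and overlap in the other panels, and in Gnpat HMB 3, HMB 4 and HMB 5 lie below every control.

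Decr2, the peroxisomal 2,4-dienoyl-CoA reductase, which prepares polyunsaturated chains for beta-oxidation, was at 10.39, 10.35, 10.28, 10.48 and 10.47 in HMB 1 to 5, against 10.18, 10.27, 10.11, 10.18 and 9.83 in controls. The groups did not overlap, but HMB 3 exceeded control 2 by only 0.0052, and the difference of 0.28 ± 0.09 did not pass (SE, n = 5 per group, limma adjusted p = 0.0964). Crot, the carnitine octanoyltransferase that readies shortened chains for export, was at 10.95, 10.59, 10.65, 10.74 and 10.40 in HMB 1 to 5, against 10.26, 10.58, 10.30, 10.37 and 10.42 in controls. HMB 5 lay within the range of the controls, and the difference was 0.28 ± 0.10 (limma adjusted p = 0.13). With HMB 1, the highest animal, counted as a control it was 0.11, and each of its other 2 probe sets differed by 0.13.

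The remaining genes of the pathway differed by less. Acox2, the oxidase of bile acid intermediates, was at 0.18 ± 0.12 (SE), and Acox3, a related oxidase with a low signal, at -0.03. With HMB 1 counted as a control they were at 0.10 and -0.15. Hsd17b4, the D-bifunctional enzyme, was at 0.10 ± 0.06, and Scp2, whose long form is the thiolase of branched chains, at -0.09 with -0.11 in its second probe set. Of the transporters, Abcd3 was at 0.07, and Abcd2 lay at log2 signals of 2.31 in HMB rats and 2.25 in controls, among the lowest 3.1% of genes, with a difference of 0.05. Eci2, an enoyl-CoA isomerase, was at -0.06, Pecr, an enoyl-CoA reductase, at -0.04, and Amacr, the racemase of branched chains, at 0.01.

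The windows upstream of Pex11a, Ehhadh and the 2 thiolase genes are shown because these hold the called gene, the member nearest to the threshold and the called probe set, which the thiolase genes share. Each is the RefSeq window of GRCr8 from 250 bases before to 50 bases after the annotated start, on the strand of the gene. Capitals mark GGGCGG (a GC box) and CCAAT on either strand, whose reverse forms read CCGCCC and ATTGG.
Pex11a, chr1:143096442-143096741, minus strand: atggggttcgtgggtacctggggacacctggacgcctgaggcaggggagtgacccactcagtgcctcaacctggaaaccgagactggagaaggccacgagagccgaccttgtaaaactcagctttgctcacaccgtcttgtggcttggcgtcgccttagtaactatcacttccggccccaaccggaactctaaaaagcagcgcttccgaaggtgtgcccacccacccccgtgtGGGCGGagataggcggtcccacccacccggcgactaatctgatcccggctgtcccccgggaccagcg
Ehhadh, chr11:92746159-92746458, plus strand: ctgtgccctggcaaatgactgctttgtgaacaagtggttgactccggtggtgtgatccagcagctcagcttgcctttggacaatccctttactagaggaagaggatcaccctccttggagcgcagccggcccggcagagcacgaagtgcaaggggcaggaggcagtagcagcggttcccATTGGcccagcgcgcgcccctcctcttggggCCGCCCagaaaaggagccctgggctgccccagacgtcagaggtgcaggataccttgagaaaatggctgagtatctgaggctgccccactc
Acaa1a, chr8:127957231-127957530, plus strand: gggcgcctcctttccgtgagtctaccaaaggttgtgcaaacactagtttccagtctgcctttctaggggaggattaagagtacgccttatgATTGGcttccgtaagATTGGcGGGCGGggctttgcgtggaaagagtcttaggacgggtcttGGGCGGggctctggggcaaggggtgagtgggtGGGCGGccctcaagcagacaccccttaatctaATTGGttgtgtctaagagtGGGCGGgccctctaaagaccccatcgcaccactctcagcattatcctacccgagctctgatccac
Acaa1b, chr8:127759520-127759819, minus strand: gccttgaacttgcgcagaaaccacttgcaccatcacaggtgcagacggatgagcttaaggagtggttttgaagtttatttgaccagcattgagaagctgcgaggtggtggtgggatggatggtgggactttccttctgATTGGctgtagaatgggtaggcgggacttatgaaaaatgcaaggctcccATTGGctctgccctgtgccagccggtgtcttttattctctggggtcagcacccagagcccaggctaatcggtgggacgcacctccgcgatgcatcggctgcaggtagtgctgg

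The thiolase windows differ in these letters. Acaa1a holds 4 copies of GGGCGG and 3 of CCAAT, and Acaa1b holds 0 and 2. Pex11a holds 1 and 0, and Ehhadh 1 and 1. A window was found for 36 of the 38 genes. These are not the 36 measured genes, since they include Acaa1a and Acaa1b and lack Pex2 and Pex6. The ideal element of PPAR-alpha with RXR, a direct repeat of AGGTCA with 1 base of any kind between the copies, was in 0 of the 36 windows and in 0.0583% of 27457 rat promoters. A looser form with any base in place of each T, which takes in the ideal one, was in 0 of 36 and in 0.412%, and all motifs were searched on both strands. At shares this low, 0 in 36 windows says nothing about these genes, and sites beyond the windows were not searched. AGGTCA alone, which the ideal repeat holds, was in 9 of 36 windows (25%), against 15.7% of all promoters. It lay in 1 of 11 peroxin windows (Pex11g) and in 7 of 19 windows of beta-oxidation and oxidase genes, among them Hsd17b4, Cat, Dao and Uox, and in none of the 4 windows printed. GGGCGG was in 9 of 11 peroxin windows and 12 of 19 of the others, against 34.9% of all promoters. CCAAT was in 3 of 11 and 9 of 19, against 37.7%. Such a match is a description of the letters and not a binding site. The median number of CG dinucleotides was 18 in the peroxin windows, 13 in those of beta-oxidation and oxidase genes and 7 in all.

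The oxidases act on other substrates, and of 5 measured genes 0 passed. Dao, which oxidises D-amino acids, was at 9.67, 9.71, 9.43, 9.83 and 9.68 in HMB 1 to 5, against 9.25, 9.48, 9.59, 9.36 and 9.22 in controls. HMB 3 lay below control 2 and control 3, and the other 4 HMB animals lay above every control. The log2 difference was 0.29 ± 0.10 (SE, n = 5 per group, limma adjusted p = 0.107). Hao1, glycolate oxidase, ran the other way, with 12.22, 12.25, 12.25, 12.17 and 12.00 in HMB rats and 12.39, 12.31, 12.34, 12.24 and 12.42 in controls. HMB 2 and HMB 3 lay just above control 4, and the difference was -0.16 ± 0.07 (limma adjusted p = 0.186). Hao2, an oxidase of long-chain hydroxy acids, was at -0.14, Uox, urate oxidase, at -0.07, and Cat, catalase, at 0.06, with intervals that all included 0. Catalase was bright, at 13.45 ± 0.07 in HMB rats and 13.40 ± 0.05 in controls (SD, n = 5 each).

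Of the alpha-oxidation genes, which remove a single carbon from branched chains such as phytanic acid, Hacl1, the lyase of the pathway, was at 11.28, 11.35, 11.12, 10.60 and 10.64 in HMB 1 to 5, against 10.99, 11.50, 11.53, 11.18 and 11.35 in controls. HMB 4 and HMB 5 were the 2 lowest of the 10 animals and HMB 1 to 3 lay within the controls. The difference was -0.31 ± 0.16 (SE, n = 5 per group, 95% interval -0.67 to 0.04, limma adjusted p = 0.253). Phyh, the hydroxylase of the first step, was at 13.13, 13.26, 13.26, 13.25 and 13.30 in HMB rats and 13.08, 13.07, 13.18, 13.23 and 13.29 in controls, with overlapping groups and a difference of 0.07 ± 0.07 (limma adjusted p = 0.557).

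Ether lipid synthesis starts in the peroxisome with Gnpat, an acyltransferase, and Agps, which makes the ether bond. Gnpat was at 6.75, 6.57, 6.01, 5.85 and 6.21 in HMB 1 to 5, against 6.58, 6.68, 6.53, 6.42 and 6.61 in controls. HMB 3, HMB 4 and HMB 5 lay below every control, while HMB 1 lay above all of them. The difference was -0.28 ± 0.15 (SE, n = 5 per group, limma adjusted p = 0.263). With HMB 1 counted as a control it was -0.43 (limma adjusted p = 0.0835). Agps had low signals of 3.44, 3.43, 3.65, 3.60 and 3.30 in HMB rats and 3.30, 3.43, 3.39, 3.29 and 3.52 in controls, with overlapping groups and a difference of 0.10 ± 0.08 (limma adjusted p = 0.472). Of the membrane protein family, Pxmp2, a channel protein, was at 11.030, 10.988, 10.949, 10.999 and 10.989 in HMB 1 to 5, against 10.995, 11.024, 10.984, 11.008 and 11.006 in controls. It varied least of all members over the 10 animals, and its difference was -0.01 ± 0.06 (limma adjusted p = 0.91). Pxmp4 was at 10.18, 9.47, 9.94, 10.19 and 10.31 in HMB rats and 9.72, 10.12, 10.33, 9.85 and 10.18 in controls. HMB 2 was the lowest of the 10, the groups overlapped otherwise, and the difference was -0.03 ± 0.16 (limma adjusted p = 0.937).

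The HMB animals were compared with each other in these genes. In Pex2, Scp2, Eci2, Pecr, Uox, Hacl1 and Gnpat, 7 of 36 members (19.4%), HMB 3, HMB 4 and HMB 5 all lay below HMB 1 and HMB 2, a pattern seen in 16.4% of all genes. In Hsd17b4 alone they all lay above HMB 1 and HMB 2 (2.78% of members, 14.4% of all genes). In Scp2, Eci2, Pecr and Gnpat (11.1% of members) these 3 animals also lay below every control, as they did in 6.69% of all genes. The SD was larger in HMB rats than in controls in 23 of 36 members (63.9%), against 51.5% of all genes. The number of members above the mean of the controls was 25, 28, 15, 21 and 18 in HMB 1 to 5 and 13, 26, 22, 14 and 20 in controls 1 to 5. Array measures split the HMB animals in the same way. The signal of the spiked poly-A controls minus that of the hybridisation controls was -1.54, -1.78 and -1.47 in HMB 3 to 5 and -1.92 and -1.96 in HMB 1 and 2, against -2.19 to -1.90 in controls. The GAPDH 3' minus 5' signal was 1.97, 2.09 and 1.90 in HMB 3 to 5 and 1.31 and 1.38 in HMB 1 and 2, against 1.38 to 1.77 in controls. With the poly-A measure as a covariate the difference was -0.01 for Gnpat and -0.17 for Hacl1. It was 0.52 for Pex11a (adjusted p = 0.243), 0.30 for Ehhadh (adjusted p = 0.28) and 0.34 for the thiolase probe set (adjusted p = 0.278). The GAPDH measure as a covariate gave -0.17 for Gnpat and -0.23 for Hacl1. For Pex11a it gave 0.60 (limma adjusted p = 0.0545), for Ehhadh 0.32 (adjusted p = 0.0773) and for the thiolase probe set 0.40 (adjusted p = 0.0473). The part of these array measures in the differences was not tested.

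**Figure D3:**
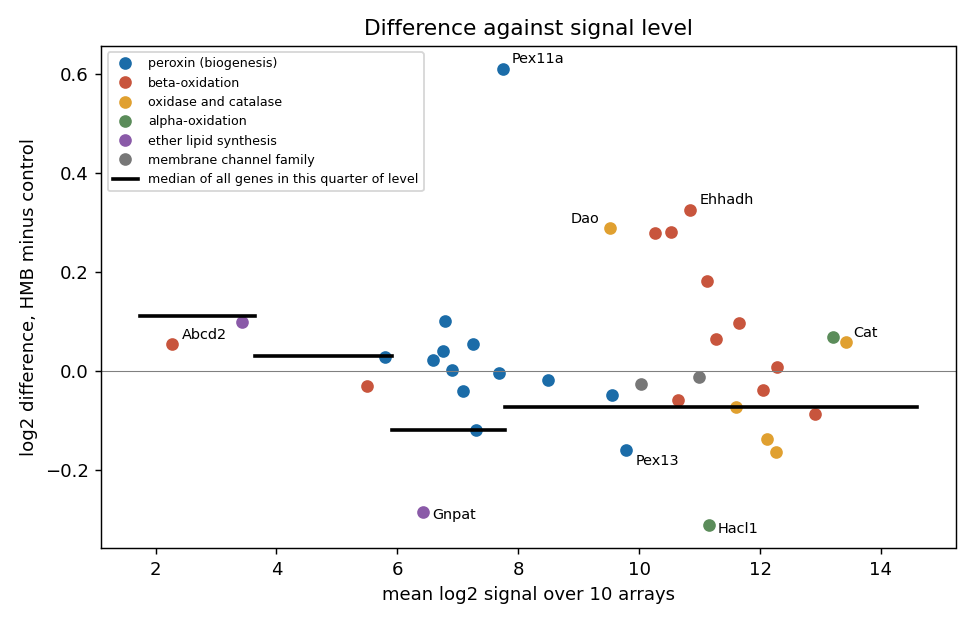
Log2 difference between HMB and control livers against the mean log2 signal over all 10 arrays for the 36 peroxisomal genes (points, coloured by role), with the median difference of all genes in each 25% of genes by signal level (black lines at 0.11, 0.03, -0.12 and -0.07). Most enzyme genes lie in the brightest 25%, and most peroxins in the 25% below it.

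Differences between the groups also ran with signal level over all genes. The median log2 difference of all genes was 0.11 in the dimmest 25% of genes, then 0.03, then -0.12, and -0.07 in the brightest 25%. Of the 36 members 22 lay in the brightest 25%, with a median of -0.01, and 10 in the next, with a median of 0.01. After cyclic loess normalisation, which removes such a trend, Pex11a was at 0.73 (limma adjusted p = 0.0361), against 0.61 as deposited. Ehhadh was at 0.37 (adjusted p = 0.0523), against 0.33, and the thiolase probe set at 0.42 (adjusted p = 0.0405), against 0.39. Over all genes 82 were then called, against 244 as deposited. The part of the trend in these differences was not tested.

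The machinery and the enzymes were set against each other by counts and medians. Of 13 peroxins 1 rose and 0 fell, 7 were above 0, and the median log2 difference was 0.00. Of 17 measured beta-oxidation and oxidase genes 0 passed, 10 were above 0, and the median was 0.05. At an unadjusted limma p under 0.05, 1 of the 13 peroxins (7.69%) and 5 of the 17 enzymes (29.4%) passed, against 24.9% of all genes. These counts depended on the scaling. After cyclic loess 3 of the 13 peroxins, 5 of the 17 enzymes and 2530 of 14217 genes were under that limit. After quantile normalisation they were 4, 4 and 2571. The order of the medians depended on the scaling as well. After cyclic loess the medians were 0.11 for the peroxins, with 12 of 13 above 0, 0.03 for the enzymes and 0.01 for all genes. With a common median over arrays they were -0.03 for the peroxins, with 4 of 13 above 0, 0.02 for the enzymes and -0.06 for all genes. The 2 groups also lay at different levels, with a median signal of 7.25 for the peroxins and 11.3 for the enzymes.

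A further list of 37 measured peroxisomal genes outside the 38 was read from the same fit. None passed (limma, adjusted p from 0.0545), 6 were higher and 5 lower at an unadjusted p under 0.05 (29.7%, against 24.9% of all genes), and the median log2 difference was 0.02. The groups did not overlap in 4 of the 37 (10.8%, against 6.12% of all genes). In Acot3, an acyl-CoA thioesterase, all HMB animals lay above all controls, at 4.86 ± 0.15 (SD, n = 5) in HMB rats and 4.37 ± 0.22 in controls (difference 0.48, limma adjusted p = 0.0545). Lonp2, a protease of the peroxisomal matrix, was likewise separate, with a difference of 0.25 (adjusted p = 0.0989), as was Gstk1, a glutathione transferase, with 0.10 (adjusted p = 0.309). In Baat, which conjugates bile acids with glycine or taurine, all HMB animals lay below all controls, with a difference of -0.19 (adjusted p = 0.123). The lowest differences were those of Nudt19, a coenzyme A hydrolase, at -0.44 (adjusted p = 0.122), and Dnm1l, the dynamin that cuts dividing peroxisomes and mitochondria, at -0.43 (adjusted p = 0.189).

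Outside the peroxisome, 3 of 22 measured PPAR-alpha targets rose and 0 fell, where 0.760% of all genes were called as higher. They were Eci1 by 0.70, Cyp4a1 by 0.69 and Decr1 by 0.37 on the log2 scale (limma adjusted p = 0.0294, 0.0414 and 0.0414), with 5 HMB animals above 5 controls in each. The largest difference of the list had the opposite sign: Fgf21, a hormone of the liver in fasting, was at 5.27 ± 0.48 in HMB rats and 6.14 ± 0.49 in controls (SD, n = 5 each, log2 difference -0.87, limma adjusted p = 0.084). Angptl4, an inhibitor of lipoprotein lipase, was at -0.38 (limma adjusted p = 0.227). The call of Eci1 was lost without HMB 2, HMB 4, HMB 5, control 2, control 3 or control 5. In these fits 0 or 1 of all genes were called. The calls of Cyp4a1 and Decr1 were lost when any animal other than HMB 1 or control 1 was left out. Their limma adjusted p was then up to 0.098 for Cyp4a1 and 0.093 for Decr1, and 0 to 157 of all genes were called. Cyp4a1 also missed the threshold after cyclic loess (adjusted p = 0.0523) and quantile normalisation (adjusted p = 0.0536), and Decr1 with a common median over arrays (adjusted p = 0.0533). Eci1 and Decr1 are the mitochondrial isomerase and reductase, and their peroxisomal counterparts Eci2 and Decr2 were at -0.06 and 0.28. Acot2, a mitochondrial thioesterase, and Acadl, the long-chain acyl-CoA dehydrogenase, were also separate between the groups, with differences of 0.29 (adjusted p = 0.0779) and 0.19 (adjusted p = 0.118), so that 5 of 22 were separate, against 2.64% of all genes with every HMB animal above every control. The list had a median of 0.11. Ppara itself had a low signal, at 4.75 ± 0.38 in HMB rats and 4.61 ± 0.44 in controls (SD, n = 5 each, limma adjusted p = 0.716). Of 6 genes of the receptor and its partners 0 passed, against 1.72% of all genes.

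**Figure D4:**
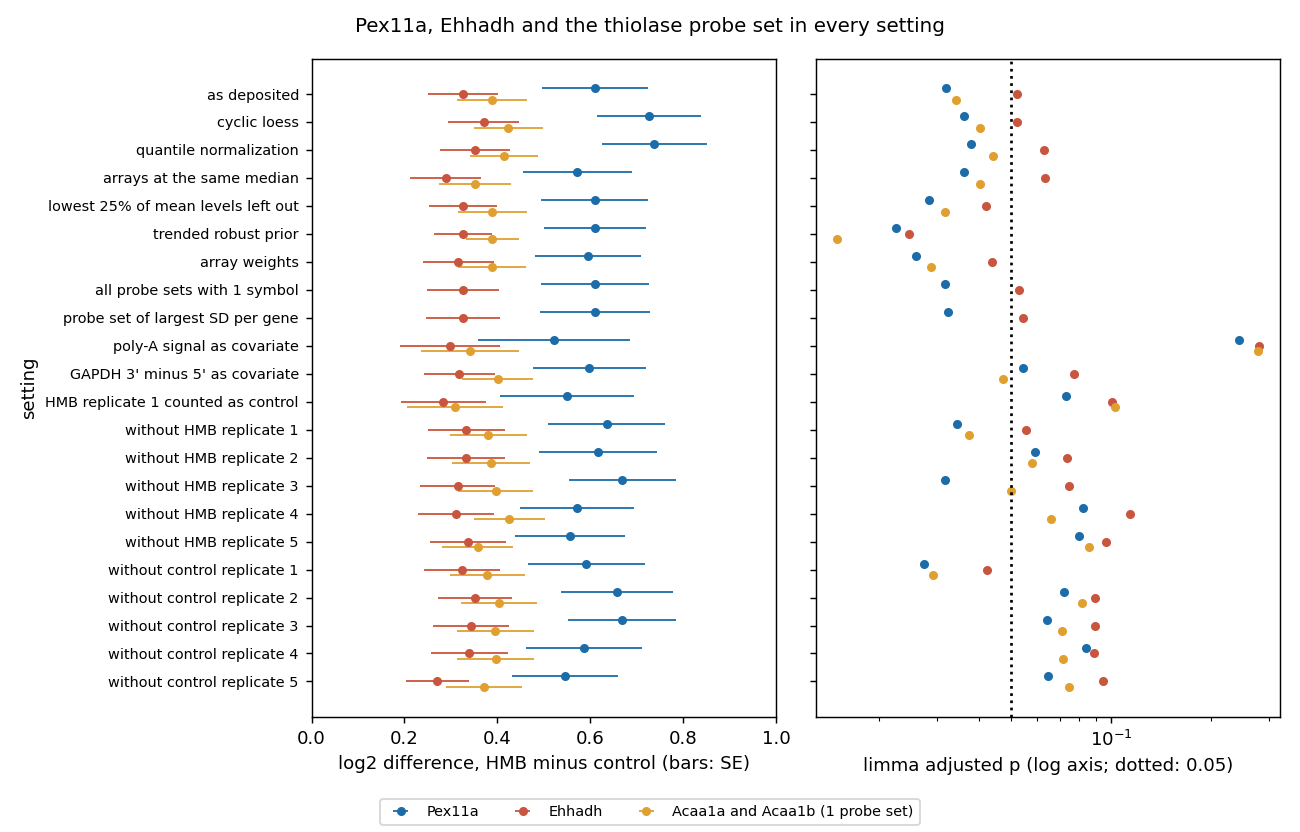
Log2 difference with SE (left) and limma adjusted p on a log axis (right) of Pex11a, Ehhadh and the thiolase probe set with the values as deposited and under each other setting in which it was tested, with the threshold of 0.05 dotted. The differences stay above 0 throughout, while the adjusted p moves across the threshold with single animals left out and is highest with the poly-A signal as covariate.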

How the data were processed

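The authors deposited log2 signals for 31099 probe sets on 10 arrays, made with RMA per the submitters' processing notes, with no version given. The values were used as deposited. Control probe sets, 57 in all, were not tested. Of 31042 probe sets, 20826 had 1 gene symbol in the platform annotation, 436 had several and 9780 carried no symbol. For 20758 the symbol was brought up to date from RefSeq (assembly GRCr8) by gene identifier. This left 14217 genes, each taken from its brightest probe set on average. No 2 of the 45 pairs of arrays were identical. The number of arrays limits the precision.

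Tests used limma 3.58.1 in R 4.3.3 (lmFit, eBayes, HMB minus control, 8 residual degrees of freedom), adjusted by Benjamini-Hochberg over all genes, with a threshold of 0.05. The labels do not say how cages were shared, so p-values measure only the spread between these animals. Values of every animal are given for members that were called, that did not overlap or that had the 2 largest differences in their role. The members, lists and settings were chosen with earlier results of these data known. No paired analysis was possible because the labels give no number that pairs animals. Promoter windows are RefSeq's. Figures were drawn with matplotlib 3.10.9.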

Additional observations from a re-analysis of the deposited data

Results flagged for a closer look

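In groups of 5 animals, 4 of 72 member groups held a single animal far from the other 4. Chance flags about 1 in 20 groups, so about as many would be flagged by chance. Abcd3, the membrane transporter, had HMB 5 at 11.45 with the next HMB animal at 11.29, and control 3 at 11.19 with the next control at 11.24. Pex26 had HMB 3 at 6.86 with the next at 7.08, and Eci2 had control 2 at 10.91 with the next at 10.64.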

How the results depend on the processing

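In all 21 other settings Pex11a stayed above 0 (0.52 to 0.74, adjusted p from 0.0225 to 0.243), and it passed in 11. Ehhadh stayed above 0 as well (0.27 to 0.37, adjusted p from 0.0246 to 0.28) and passed in 4. The other 34 members passed in none, and 20 of 36 changed sign in at least 1 setting, none of which differed by more than 0.12 as deposited. Of the members 2 passed when the lowest 25% of levels was left out (34 tested), with a trended robust prior and with array weights (36 tested in each). They were Pex11a and Ehhadh, so 1 of the beta-oxidation and oxidase genes. Over all genes these settings called 258 of 10663, 253 of 14217 and 659 of 14217. With the poly-A signal or the GAPDH 3' minus 5' signal as a covariate, or with HMB 1 counted as a control, 0 members and 0 peroxins passed, with 3, 6 and 6 members at an unadjusted limma p under 0.05. Of all 14217 genes, 1914, 3222 and 3572 were under that limit. The other peroxisomal genes had 1 call after cyclic loess and quantile normalisation (Acot4), and 1 when low levels were left out, with array weights and over probe sets (Acot3). The PPAR-alpha targets had 0 calls with the poly-A covariate and with HMB 1 as a control, and 1 with the GAPDH covariate. Over all genes, 244 as deposited, the count was 82 after cyclic loess, 62 after quantile normalisation, 659 with array weights, 0 with the poly-A covariate (1914 at an unadjusted limma p under 0.05), 55 with the GAPDH covariate and 30 with HMB 1 as a control. With each animal left out in turn, calls ranged from 0 to 1014 over all genes, 0 to 2 over members, 0 to 1 over peroxins, over beta-oxidation and oxidase genes and over other peroxisomal genes, and 0 to 3 over PPAR-alpha targets. The cause was not tested. Signal over background was not measured here.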
